A study of Mus musculus with 8 samples.

Results

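The 43 genes described here encode proteins that license, copy and segregate chromosomes, and they were taken by name from the 54532 genes of the read count table. They comprise 17 genes used mainly for entry into and passage through S phase and 26 used mainly in mitosis. The table holds 8 RNAseq libraries of mG+ cells, the cells expressing membrane GFP, sorted from mice aged 8 months. KO mice were *Tie2e-cre*; *TERTfl/fl*; *mTmG* and WT mice were *Tie2e-cre*; *TERT+/+*; *mTmG*, so that all groups carried the Cre transgene and the reporter. WT and KO libraries were available from subcutaneous adipose tissue (SAT) after a high fat diet (HFD), and from SAT, visceral adipose tissue (VAT) and skeletal muscle on chow, which gives 4 pairs of 1 WT and 1 KO library. Cre was driven by the endothelial *Tie2e* promoter, and mG marks every cell in which Cre has acted, including the progeny of such cells. Whether mice were pooled for a library is not given in the sources used here.

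A dividing cell first loads the MCM helicase onto replication origins with the help of Cdc6 and Cdt1, then fires these origins once cyclin E and the E2F transcription factors have committed it to S phase. The sliding clamp Pcna and the enzymes that make deoxynucleotides are needed while DNA is copied. Cyclin A and cyclin B with the kinase Cdk1 carry the cell into mitosis, where the Aurora and Polo kinases, the kinetochore, the spindle checkpoint and kinesin motors separate the chromosomes. The Cdc20-dependent ubiquitin ligase then ends mitosis. Most endothelial cells of adult vessels are quiescent, and transcripts of these genes are accordingly used as a measure of how many cells in a sample are cycling. In a bulk library, fewer cycling cells and less RNA per cycling cell cannot be told apart.

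Many of these genes are known to be controlled through shared promoter elements, an E2F site in S phase genes, and a cell cycle homology region (CHR) with CCAAT boxes in mitosis genes. Of the 43 members, 34 were found in the RefSeq promoter table (GRCm38.p6), and *Aurkb*, *Ccna2*, *Ccne2*, *Cdc25c*, *Foxm1*, *Gins2*, *Kif20a*, *Mcm4* and *Tpx2* were not. The 250 bases before the start were searched on both strands for short motifs. The E2F core was searched in the form TTCGCGC, in the related form TTGGCGC often seen in S phase genes, and in the form TTCCCGC that many E2F targets carry. The CHR was searched as TTTGAA and the CCAAT box by its own letters. Overlapping matches to an E2F form were counted separately. The stretches below are shown because *Top2a*, *Cdk1*, *Rrm2* and *Mcm5* were higher in muscle than in VAT cells, as described further on, and represent mitosis and S phase. The first 2 E2F forms were also searched with 1 more T at their start, and capitals mark every match, with that T where it was present, read on either strand, and each line ends at the base before the start.
Top2a: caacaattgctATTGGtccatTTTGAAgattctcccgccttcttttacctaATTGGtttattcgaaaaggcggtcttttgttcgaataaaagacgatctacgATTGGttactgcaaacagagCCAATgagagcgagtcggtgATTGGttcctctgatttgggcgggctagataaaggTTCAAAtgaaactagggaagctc
Cdk1: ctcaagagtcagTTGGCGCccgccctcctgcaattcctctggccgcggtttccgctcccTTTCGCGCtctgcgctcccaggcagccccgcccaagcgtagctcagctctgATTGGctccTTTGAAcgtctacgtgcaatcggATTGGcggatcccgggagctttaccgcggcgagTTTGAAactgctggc
Rrm2: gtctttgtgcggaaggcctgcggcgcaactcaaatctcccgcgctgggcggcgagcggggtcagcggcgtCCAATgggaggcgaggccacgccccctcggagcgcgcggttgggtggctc
Mcm5: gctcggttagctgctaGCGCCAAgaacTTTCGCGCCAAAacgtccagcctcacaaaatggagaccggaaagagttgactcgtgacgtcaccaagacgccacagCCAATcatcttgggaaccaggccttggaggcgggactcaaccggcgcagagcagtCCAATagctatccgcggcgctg
The *Top2a* stretch lies on the minus strand of chromosome 11 from 99024190 to 99024389, and the *Cdk1* stretch on the minus strand of chromosome 10 from 69352913 to 69353102. The *Rrm2* stretch lies on the plus strand of chromosome 12 from 24708134 to 24708253, and the *Mcm5* stretch on the plus strand of chromosome 8 from 75109329 to 75109508.

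The CHR form was present before the start of 7 of 20 mitosis members (35.0%) and 2 of 14 S phase members (14.3%), compared with 16.3% of all 27025 promoters. At least 2 CCAAT matches were present in 11 of 20 mitosis members (55.0%) and 5 of 14 S phase members (35.7%), compared with 10.5% of all promoters. An E2F core form was found in 5 of 14 S phase members (35.7%) and 3 of 20 mitosis members (15.0%), compared with 6.79% of all promoters. The mitosis gene *Cdk1* carried all 3 elements, and *Mcm5* carried overlapping E2F forms and CCAAT without the CHR form. These are matches of letters only, and whether any of them is bound in these cells was not measured.

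Total counts were between 6214269 and 18855772 per library, so that 3 counts, the level used below as the limit for a gene with no counts, correspond to 0.184 to 0.434 counts per 1000000 (CPM). Levels are given as CPM scaled by the trimmed mean of M-values. All 43 members had a mean of at least 10 counts per library and entered the tests across libraries. *Tert* was at 114, 70, 3 and 24 counts in the WT libraries of SAT HFD, SAT chow, VAT and muscle, and at 0, 11, 9 and 7 counts in the libraries labelled KO, so the VAT pair did not show the labelled direction. The summed level of 15 endothelial markers was 3249 to 4877 CPM in VAT and muscle libraries and 538 to 1181 CPM in SAT libraries. The SAT chow WT library stood apart by *Malat1*, a nuclear noncoding RNA, which was at 299 CPM there and at 2176 to 6005 CPM in the other 7 libraries.

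In the coordinates of the count table (GRCm38), *Mki67* (ENSMUSG00000031004) spans 135689784 to 135716361 on the minus strand of chromosome 7, and *Top2a* (ENSMUSG00000020914) 98992943 to 99024189 on the minus strand of chromosome 11. *Cdk1* (ENSMUSG00000019942) spans 69335146 to 69352938 on the minus strand of chromosome 10. *Pcna* (ENSMUSG00000027342) spans 132249162 to 132253314 on the minus strand of chromosome 2, and *Mcm2* (ENSMUSG00000002870) 88883474 to 88898780 on the minus strand of chromosome 6.

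The members were highest in the mG+ cells of muscle. Their summed level was 2953 CPM in the WT and 3681 CPM in the KO muscle library. In adipose tissue it was 2003 and 1235 CPM in SAT chow, 966 and 1069 CPM in SAT HFD, and 850 and 943 CPM in VAT, in the order WT and KO. Both muscle libraries lay above every adipose library, and the SAT chow WT library lay above the remaining adipose libraries. In single genes, 35 of 43 members had their highest level in the muscle KO library, 2 in the muscle WT library, 4 in the SAT chow WT library and 2 in the SAT chow KO library. The lowest level was in the VAT WT library for 18 members and in the SAT HFD WT library, the shallowest, for 15.

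**Figure D1:**
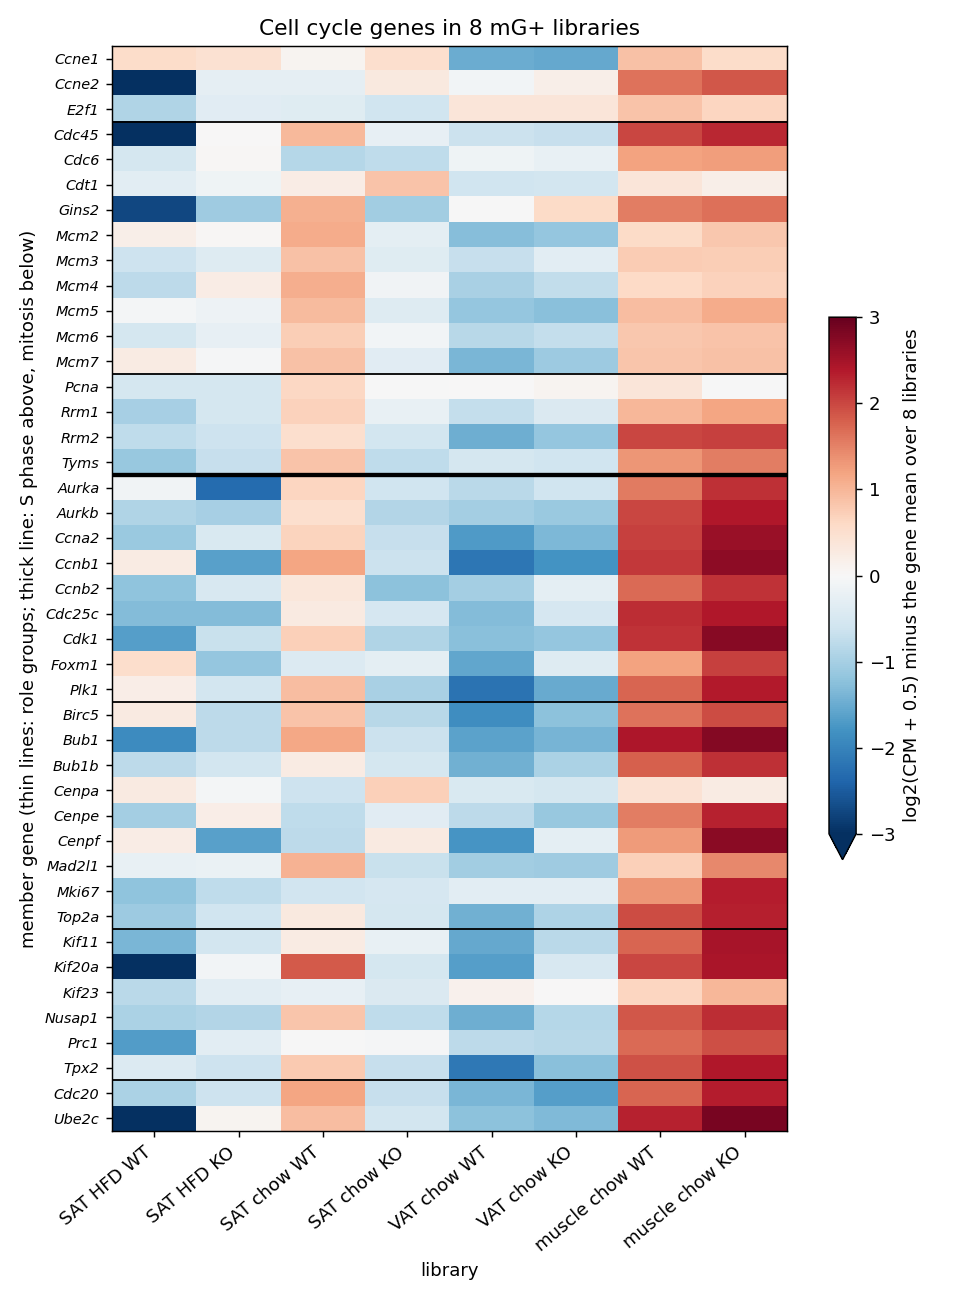
Level of each of the 43 members (rows) in each library (columns), as log2(CPM + 0.5) minus the mean of that gene over the 8 libraries, with values under −3 drawn in the darkest blue. The muscle columns are red for nearly all members, and most intensely for mitosis genes below the thick line.

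Genes that admit cells to S phase were at low levels in all libraries. *E2f1*, the transcription factor that switches on S phase genes, had the highest level of its group per kb of gene length, 4.44 CPM per kb on average. Its level was 6.65 and 10.1 CPM in SAT HFD, 9.84 and 8.31 CPM in SAT chow, 16.8 and 16.6 CPM in VAT, and 23.6 and 20.3 CPM in muscle, in the order WT and KO here and in the sentences that follow. The muscle libraries were highest and the VAT libraries next, with no overlap between tissues. None of the 3 genes of this group, which also holds the cyclin E genes *Ccne1* and *Ccne2*, passed the test in any comparison of tissues.

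Among the 10 genes of origin licensing and the helicase, *Mcm6* was most abundant per kb, with a mean of 22.1 CPM per kb. *Mcm6* was at 64.2 and 77.5 CPM in SAT HFD, 156 and 87.7 CPM in SAT chow, 51.6 and 56.6 CPM in VAT, and 164 and 168 CPM in muscle. The helicase subunit *Mcm2* was at 65.4 and 59.4 CPM in SAT HFD, 126 and 46.7 CPM in SAT chow, 23.3 and 25.6 CPM in VAT, and 86.4 and 101 CPM in muscle. For *Mcm2* the SAT chow WT library exceeded both muscle libraries, as it also did for *Mcm3* and *Mcm4*. The VAT libraries were the lowest for *Mcm2*.

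*Pcna*, the sliding clamp of the replication fork that also serves DNA repair in cells that do not divide, was the most abundant member per kb at 97.4 CPM per kb. Its level was 156 and 157 CPM in SAT HFD, 350 and 225 CPM in SAT chow, 228 and 241 CPM in VAT, and 291 and 223 CPM in muscle. The muscle and VAT libraries overlapped, and *Pcna* was the only member for which both muscle libraries did not exceed both VAT libraries. By contrast *Rrm2*, the regulated subunit of ribonucleotide reductase, was at 15.0 and 16.6 CPM in SAT HFD, 36.8 and 17.6 CPM in SAT chow, 8.99 and 11.3 CPM in VAT, and 105 and 110 CPM in muscle. The muscle libraries stood clear of all adipose libraries.

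Mitotic cyclins and kinases followed the pattern of *Rrm2*. *Ccnb2*, encoding a B-type cyclin, was most abundant per kb in this group with 10.9 CPM per kb, and was at 4.48 and 7.72 CPM in SAT HFD, 14.1 and 4.40 CPM in SAT chow, 5.22 and 8.91 CPM in VAT, and 36.9 and 51.6 CPM in muscle. *Cdk1*, the kinase that drives mitotic entry, was at 2.17 and 4.79 CPM in SAT HFD, 13.2 and 3.97 CPM in SAT chow, 3.0 and 3.21 CPM in VAT, and 37.3 and 54.8 CPM in muscle. Every adipose library was below both muscle libraries for these genes. *Cdc25c*, the phosphatase that activates Cdk1, was the least counted member, with 0 counts in both SAT HFD libraries and in the VAT WT library, which allows up to 3 counts, and with 85 and 82 counts in muscle.

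Members of the chromosome group differed from each other. *Mki67*, which coats mitotic chromosomes and encodes the Ki-67 antigen, was at 43.5 and 59.6 CPM in SAT HFD, 67.3 and 71.5 CPM in SAT chow, 81.0 and 80.7 CPM in VAT, and 254 and 516 CPM in muscle. *Top2a*, the topoisomerase that disentangles sister chromatids, was at 36.6 and 51.7 CPM in SAT HFD, 96.4 and 54.2 CPM in SAT chow, 28.6 and 41.3 CPM in VAT, and 307 and 396 CPM in muscle. *Cenpa*, the centromeric histone, was most abundant per kb in this group, with 14.7 CPM per kb, and was at 98.9 and 78.0 CPM in SAT HFD, 53.3 and 135 CPM in SAT chow, 59.8 and 56.3 CPM in VAT, and 111 and 97.3 CPM in muscle. *Mki67* and *Top2a* separated muscle from adipose libraries, whereas *Cenpa* did not.

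In the remaining groups, *Kif11*, the motor that pushes spindle poles apart, and *Cdc20*, the activator of the mitotic ubiquitin ligase, were most abundant per kb, with 6.92 and 10.3 CPM per kb. *Kif11* was at 7.66 and 13.7 CPM in SAT HFD, 24.6 and 17.5 CPM in SAT chow, 6.77 and 11.5 CPM in VAT, and 69.7 and 115 CPM in muscle. *Cdc20* was at 5.64 and 7.26 CPM in SAT HFD, 26.7 and 6.82 CPM in SAT chow, 4.11 and 3.29 CPM in VAT, and 39.4 and 60.9 CPM in muscle. Both genes were highest in the 2 muscle libraries, with the SAT chow WT library next.

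Muscle and VAT cells were compared first, with the 2 libraries of each tissue as its replicates and genotype as a term. In the quasi-likelihood test of edgeR, adjusted by the Benjamini-Hochberg method over 16971 genes, 16 of 43 members were higher in muscle and 0 were lower, while 0.990% of all genes tested were higher and 1.03% were lower. The 16 comprised 13 of 26 mitosis and 3 of 17 S phase members. All 43 members had a positive log2 fold change, with a median of 2.69, compared with a median of 0.06 over all genes tested. The median was 3.33 for mitosis and 1.67 for S phase members, and 35 members had an unadjusted p under 0.05, beside 12.8% of all genes. Both muscle libraries exceeded both VAT libraries for 42 members, a pattern shown by 33.4% of all genes.

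The 5 members with the largest change past the threshold were all mitosis genes. *Ccnb1*, encoding cyclin B1, was at 0.999 and 1.46 CPM in VAT and at 28.8 and 43.2 CPM in muscle, and its log2 fold change was 4.87 ± 0.925 (SE) with an edgeR adjusted p of 0.0445. *Ccna2*, encoding cyclin A2, was at 3.89 and 5.04 CPM in VAT and at 58.1 and 85.5 CPM in muscle (log2 fold change 4.0 ± 0.616, SE, edgeR adjusted p = 0.0207). The spindle assembly factor *Tpx2* rose by 3.94 ± 0.650 on the log2 scale (SE, edgeR adjusted p = 0.0282), *Cdk1* by 3.88 ± 0.753 (SE, adjusted p = 0.0476) and *Cdc20* by 3.81 ± 0.706 (SE, adjusted p = 0.0411). The VAT levels of *Ccnb1* rested on 9 and 20 counts. The smallest adjusted p was that of *Top2a*, which changed by 3.33 ± 0.423 on the log2 scale (SE, edgeR adjusted p = 0.0101), and *Mki67* changed by 2.18 ± 0.353 (SE, edgeR adjusted p = 0.0259).

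The S phase members that passed were *Rrm2*, which changed by 3.39 ± 0.443 (SE, edgeR adjusted p = 0.0116), and the helicase subunits *Mcm5* and *Mcm7*, with 2.28 ± 0.421 (SE, adjusted p = 0.0403) and 2.09 ± 0.410 (SE, adjusted p = 0.0488). *Mcm2* had a log2 value of 1.94 ± 0.447 (SE, edgeR adjusted p = 0.0763) and *Pcna* of 0.11 ± 0.320 (SE, adjusted p = 0.974), neither past the threshold. The other genes that passed were *Aurkb*, *Bub1b*, *Cenpe*, *Kif11*, *Nusap1* and *Prc1*, which act in chromosome attachment, the spindle checkpoint and the spindle midzone. These calls were lost when a library of either tissue was left out, except that of *Top2a* without the muscle WT library. Most calls over all genes were lost too, and in these fits the lone library was assumed to vary like the other groups. The median over members was 2.51 without the VAT WT and 2.48 without the VAT KO library, beside 0.11 and −0.02 over all genes. It was 2.87 without the muscle WT and 2.54 without the muscle KO library, beside 0.00 and 0.03.

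**Figure D2:**
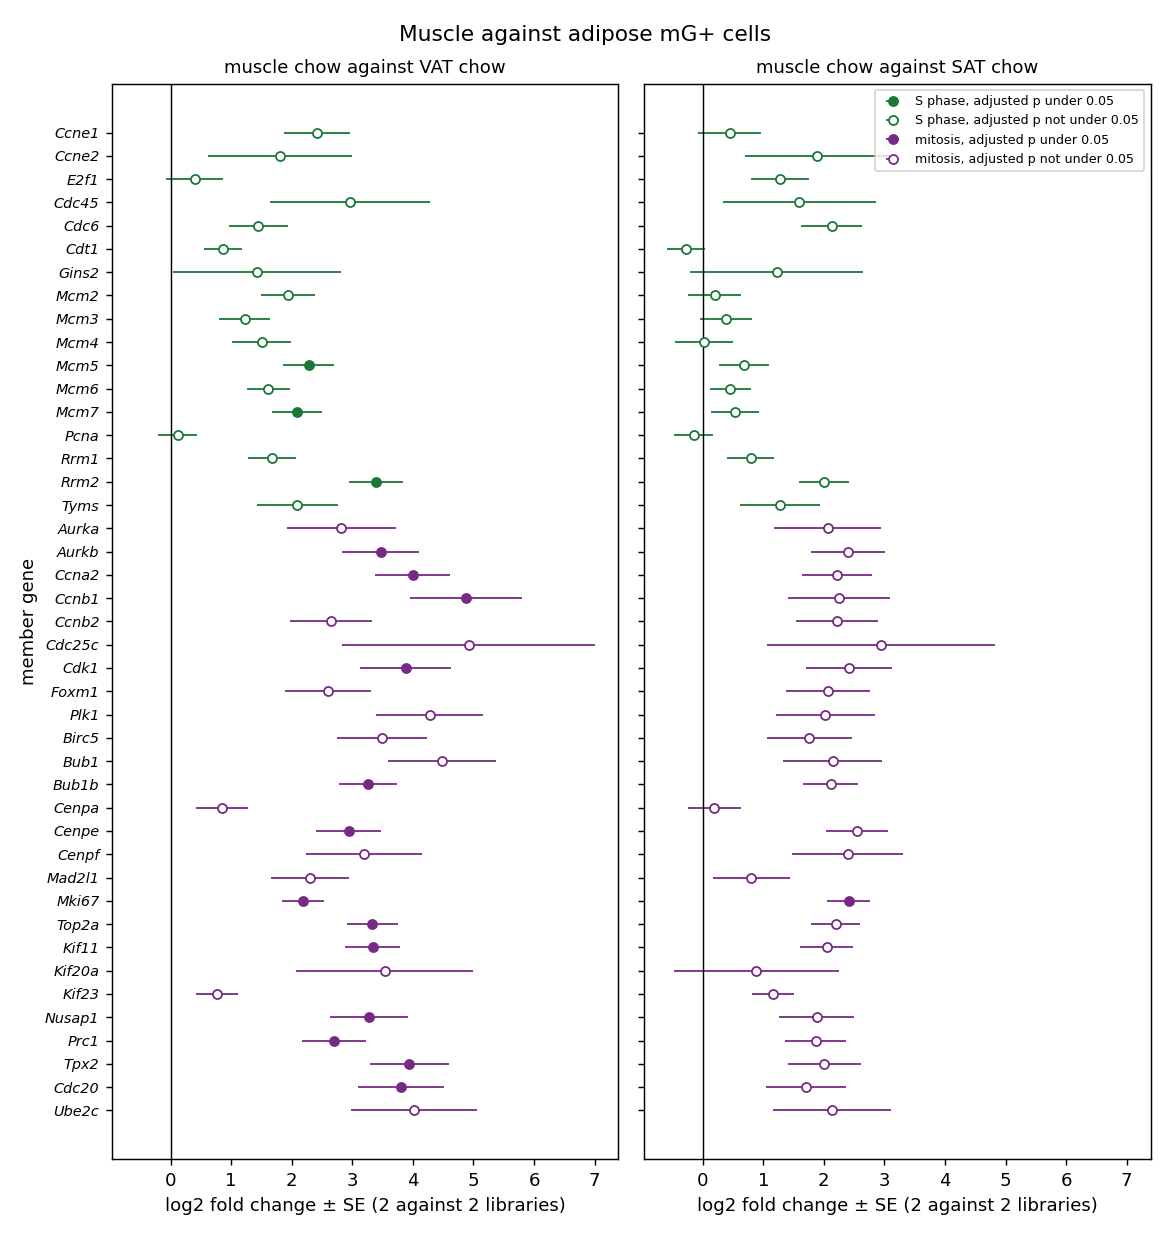
Log2 fold change (x axis) of each member (y axis) in muscle against VAT cells on the left and against SAT chow cells on the right. Bars are SE derived from the edgeR fold change and F statistic. Filled points have an adjusted p under 0.05. All points are above 0 on the left, and on the right most mitosis genes sit near 2 while the MCM genes and *Pcna* lie between −0.15 and 0.68.

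Against SAT chow cells, *Mki67* was the 1 member of 43 past the threshold, which was higher in muscle by 2.41 ± 0.356 on the log2 scale (SE, edgeR adjusted p = 0.0265), and 1.10% of all genes tested were higher. An unadjusted p under 0.05 was found for 24 members, of which 21 were mitosis members, beside 11.5% of all genes. The median log2 fold change was 2.09 over mitosis members and 0.68 over S phase members, beside −0.11 over all genes. *Top2a* had a log2 value of 2.19 ± 0.406 (SE, edgeR adjusted p = 0.0514) and *Cdk1* of 2.42 ± 0.717 (SE, adjusted p = 0.197). *Mcm2* had a value of 0.20 ± 0.438 (SE, adjusted p = 0.944) and *Pcna* of −0.15 ± 0.320 (SE, adjusted p = 0.942). This comparison shares its muscle libraries with the one before. Without the SAT chow WT library the median over members was 2.73, beside 0.05 over all genes. Without the SAT chow KO library it was 1.10, beside 0.00. Leaving out the muscle WT or the muscle KO library gave medians of 2.14 and 1.48, beside −0.14 and −0.06. The *Mki67* call was lost when either muscle library was left out.

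Both muscle libraries exceeded all 6 adipose libraries for 33 of 43 members, a pattern shown by 8.46% of all genes tested. This held for 24 of 26 mitosis members, with *Cenpa* and *Mad2l1* as the exceptions, and for 9 of 17 S phase members. The 8 S phase exceptions were *Ccne1*, *Cdt1*, *Mcm2*, *Mcm3*, *Mcm4*, *Mcm5*, *Mcm7* and *Pcna*.

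Markers of neutrophil precursors differed between the same libraries. All 10 markers of this list were higher in both muscle libraries than in every adipose library, with a summed level of 18589 and 20565 CPM in muscle and 31.1 to 151 CPM in adipose tissue. *Elane* and *Mpo*, which encode granule enzymes made in neutrophil precursors, were at 521 and 641 CPM and at 1128 and 1554 CPM in muscle, and each was at 0 counts in both SAT HFD libraries. Mature neutrophil markers summed to 12803 and 16006 CPM in muscle and to 110 to 1023 CPM in adipose tissue, with 6 of 7 markers above every adipose library. Endothelial markers summed to 3249 and 3894 CPM in muscle and 4630 and 4877 CPM in VAT, so the endothelial sum was not higher in muscle than in VAT. The largest part of the VAT sums was *Cd36*, at 1519 and 2065 CPM there and at 421 and 497 CPM in muscle. In both muscle libraries 7 of 15 endothelial markers were above every adipose library. The part of these markers in the level of cell cycle genes was not tested.

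**Figure D3:**
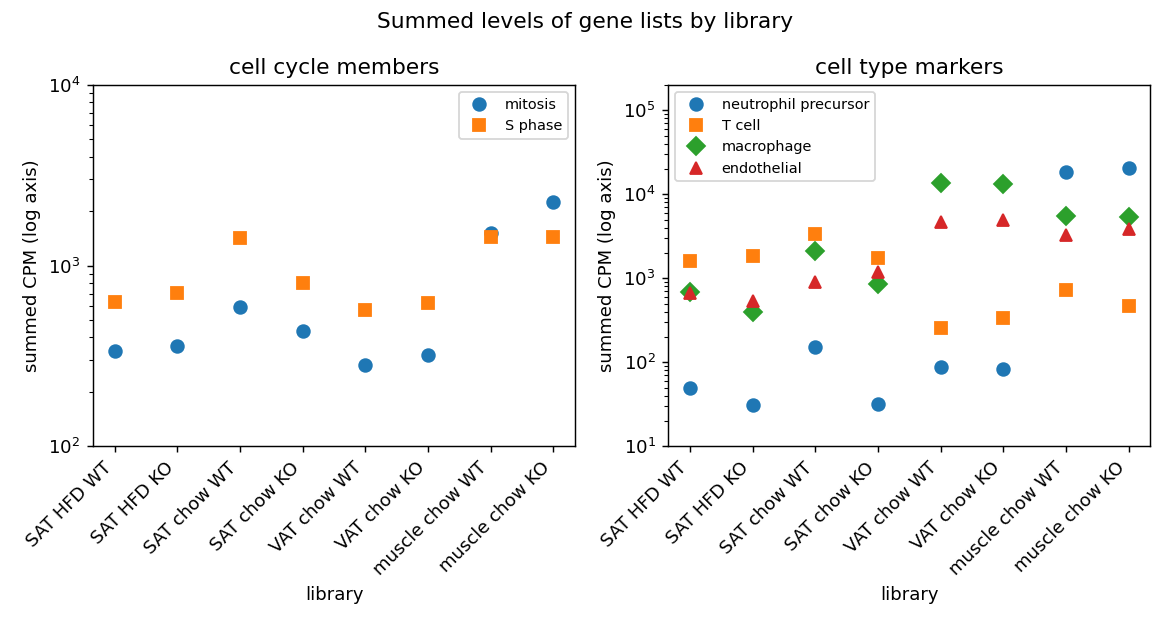
Summed CPM (log axis) of the mitosis and S phase members on the left and of 4 lists of cell type markers on the right, for each library. The neutrophil precursor sum is at least 18589 CPM in muscle and at most 151 CPM in adipose libraries, and the mitosis sum is 1508 and 2240 CPM in muscle and at most 589 CPM in adipose libraries.

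The balance of mitosis and S phase transcripts differed between muscle and adipose tissue. The median log2(CPM + 0.5) of S phase members minus that of mitosis members was 1.21 and 0.88 in the muscle libraries. It was 2.24 and 2.58 in SAT HFD, 2.02 and 2.50 in SAT chow, and 2.44 and 2.06 in VAT, a mean of 2.31 ± 0.234 (SD, n = 6 libraries of 3 tissue and diet groups). The difference between the muscle mean and the adipose mean was −1.26, with no overlap between the libraries. In summed CPM, S phase members were at 1445 and 1442 CPM in muscle and at 1414 CPM in the SAT chow WT library, while mitosis members were at 1508 and 2240 CPM in muscle and at 589 CPM in the SAT chow WT library. Thus the SAT chow WT library was close to muscle in its S phase sum, and not in its mitosis sum. Abundant genes weigh most in such a sum, and *Pcna* alone was at 350 CPM in that library. For 9 of 17 S phase members both muscle libraries exceeded all 6 adipose libraries, beside 8.46% of all genes. These are descriptions over genes, which are not replicates.

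**Figure D4:**
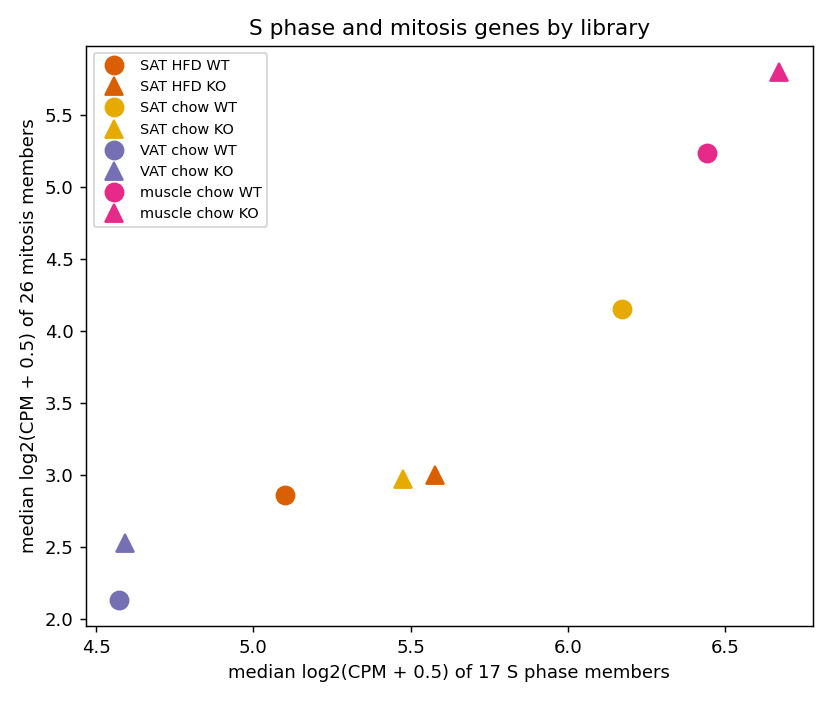
Median log2(CPM + 0.5) of the 17 S phase members (x axis) and of the 26 mitosis members (y axis) in each library, with circles for WT and triangles for KO. The muscle libraries are at the upper right, where the mitosis median is 5.23 and 5.79, and the VAT libraries are at the lower left, where it is 2.13 and 2.53.

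VAT cells were compared with SAT chow cells. None of the 43 members passed edgeR's quasi-likelihood test, with 1.87% of all genes tested lower and 3.13% higher in VAT, and 19 members had an unadjusted p under 0.05, beside 20.7% of all genes. The median log2 fold change was −1.15, beside −0.13 over all genes, and without the SAT chow WT library it was −0.33, beside 0.10. The members nearest to the threshold were helicase subunits, with *Mcm2* at −1.74 ± 0.451 (SE, edgeR adjusted p = 0.0716). *Top2a* had a log2 value of −1.14 ± 0.398 (SE, adjusted p = 0.157), *Cdk1* of −1.47 ± 0.711 (SE, adjusted p = 0.293), *Pcna* of −0.27 ± 0.321 (SE, adjusted p = 0.693) and *Mki67* of 0.23 ± 0.338 (SE, adjusted p = 0.757). Without the SAT chow KO library 21 members passed, all lower in VAT, beside 20.9% of all genes in either direction. Without the SAT chow WT library 2 members passed, *Cdt1* and *Cenpa*, both lower in VAT, beside 5.52% of all genes. DESeq2's Wald test called 6 members, all lower in VAT, beside 13.6% of all genes in either direction. Both VAT libraries were below all 6 others for 16 of 43 members, beside 12.2% of all genes. T cell markers summed to 1754 to 3372 CPM in SAT chow and 259 and 339 CPM in VAT, and macrophage markers to 856 to 2122 CPM and 13251 to 13423 CPM, and the part of these cell types was not tested.

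The diet was compared in SAT. None of the 43 members passed the same edgeR test, nor did any gene of the whole table (0.00%), and 4 members had an unadjusted p under 0.05, namely *Rrm1*, *Pcna*, *Kif11* and *Cdt1*, beside 9.29% of all genes. DESeq2's Wald test also called 0 members. The median log2 fold change after HFD was −0.80, beside −0.32 over all genes, and with DESeq2 size factors it was −0.55, beside −0.09. Without the SAT chow WT library the median was 0.11, beside −0.13 over all genes, and without the SAT chow KO library it was −1.42, beside −0.33, with 5 members lower past the threshold and 2.62% of all genes past it in either direction. The sign of the median therefore turned with the SAT chow WT library. *Pcna* had a value of −0.85 ± 0.323 (SE, edgeR adjusted p = 0.517), *Top2a* of −0.80 ± 0.395 (SE, adjusted p = 0.589), *Mki67* of −0.45 ± 0.339 (SE, adjusted p = 0.703), *Mcm2* of −0.41 ± 0.436 (SE, adjusted p = 0.800) and *Cdk1* of −1.29 ± 0.726 (SE, adjusted p = 0.629). Both HFD libraries were below both chow libraries for 17 of 43 members, beside 26.6% of all genes.

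Loss of *Tert* in endothelial cells was studied as a cause of senescence, in which cells stop dividing, and the KO and WT libraries were therefore compared over the 4 pairs. None of the 43 members passed edgeR's quasi-likelihood test, 0 had an unadjusted p under 0.05, and 0.00589% of all genes tested passed. DESeq2's Wald test likewise called 0 members. The median log2 fold change was 0.02 over members and 0.03 over all genes, and it was −0.16 to 0.26 when a pair was left out. *Mki67* had a value of 0.39 ± 0.241, *Top2a* of 0.14 ± 0.279, *Cdk1* of 0.02 ± 0.503, *Mcm2* of −0.29 ± 0.313 and *Pcna* of −0.23 ± 0.227 (SE, adjusted p = 0.9996 in each, edgeR). Of the 41 members that passed the count filter in every pair, 1 (*Ccne2*) was higher in the KO library of all 4 pairs and 0 were lower in all 4.

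The pairs were therefore described separately. With 1 library per genotype there is no test, the 95% Clopper-Pearson intervals given here cover counting error only, and a member was called when its change was at least 2-fold with an interval off 0. In SAT chow the KO library had lower levels of most members. Of the 43 members, 24 were called lower and 2 higher, beside 18.8% lower and 25.8% higher among all genes, and the median log2 ratio was −1.25, beside 0.00 over all genes. The lower calls included 15 of 26 mitosis and 9 of 17 S phase members, among them 7 of 9 mitotic cyclins, kinases and regulators, and 7 of 10 licensing and helicase genes. *Kif20a*, a kinesin of the spindle midzone, was at 20.0 CPM in WT and 3.47 CPM in KO (log2 ratio −2.51, interval −2.96 to −2.11). *Gins2*, a subunit of the active helicase, was at 6.50 and 1.12 CPM (−2.51, −3.35 to −1.81), and *Plk1*, the Polo kinase, at 12.9 and 3.10 CPM (−2.04, −2.53 to −1.60).

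The members did not all move together in this pair. *Cenpa* was higher in KO by 1.34 on the log2 scale (interval 1.22 to 1.45) and *Cenpf*, a kinetochore protein, by 1.14 (0.69 to 1.62). The licensing factor *Cdt1* had a log2 ratio of 0.63 (0.52 to 0.74). *Mki67* had a log2 ratio of 0.09 (−0.03 to 0.21), *Top2a* of −0.83 (−0.95 to −0.71), *Cdk1* of −1.72 (−2.16 to −1.32), *Mcm2* of −1.43 (−1.56 to −1.31) and *Pcna* of −0.64 (−0.70 to −0.58). The WT library of this pair was the one with low *Malat1*. Markers of other cells differed too, with all 9 macrophage markers lower in KO (2122 and 856 CPM summed, WT and KO), 7 of 8 T cell markers lower (3372 and 1754 CPM), 4 of 7 B cell markers lower (1969 and 1485 CPM) and all 9 stromal markers higher (1156 and 4235 CPM). Of the neutrophil precursor markers 9 of 10 were lower in KO, and of the mature neutrophil markers 6 of 7. Of the 15 endothelial markers 4 were lower. The part of these differences in the lower levels of cell cycle genes was not tested.

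In SAT HFD members were called in both directions, about as often as genes in general. Of 41 members passing the count filter, 9 were called higher and 5 lower in KO, beside 18.0% and 16.3% of all genes, with a median log2 ratio of 0.27, beside 0.06 over all genes. Lower were *Aurka*, the Aurora kinase of spindle poles, at 5.78 and 0.850 CPM (log2 ratio −2.70, interval −3.88 to −1.78), *Ccnb1* at 7.52 and 1.70 CPM (−2.11, −2.94 to −1.40) and *Cenpf* at 7.66 and 1.78 CPM (−2.08, −2.88 to −1.38). Higher were *Cdc45*, which joins the active helicase, with 0 and 77 counts (at least 13.7-fold), *Kif20a* with 0 and 64 counts (at least 11.4-fold) and *Ccne2* with 0 and 47 counts (at least 8.37-fold), each against 3 counts in the WT library. Of all 2603 genes with 40 to 100 counts in this KO library, 533 (20.5%) were at 0 counts in the WT library, so zeros of this kind were frequent there. *Mki67* had a log2 ratio of 0.45 (0.26 to 0.65), *Top2a* of 0.50 (0.29 to 0.71), *Cdk1* of 1.12 (0.31 to 2.06) on 15 and 62 counts, *Mcm2* of −0.14 (−0.31 to 0.03) and *Pcna* of 0.01 (−0.10 to 0.12).

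In VAT, where the *Tert* counts went against the labels, 3 of 42 members passing the count filter were called higher and 0 lower in the library labelled KO, beside 7.48% and 6.48% of all genes. The median log2 ratio was 0.23, beside 0.01 over all genes. The 3 were *Cenpf* at 1.55 and 5.26 CPM (log2 ratio 1.73, interval 0.92 to 2.70), *Kif20a* at 1.33 and 3.65 CPM (1.43, 0.53 to 2.50) and *Foxm1*, the transcription factor of mitosis genes, at 4.89 and 11.6 CPM (1.24, 0.76 to 1.77). The lowest ratios were those of *Cenpe* (−0.39, −0.90 to 0.13), *Cdc20* (−0.32, −0.98 to 0.35) and *Kif23* (−0.13, −0.35 to 0.08), all with intervals over 0. *Mki67* had a ratio of −0.01 (−0.14 to 0.13), *Top2a* of 0.53 (0.31 to 0.74), *Cdk1* of 0.10 (−0.62 to 0.85), *Mcm2* of 0.14 (−0.11 to 0.39) and *Pcna* of 0.08 (up to 0.16, with a lower end just under 0).

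In muscle, mitosis genes were higher in the KO library and S phase genes were near the WT level. Of the 43 members, 2 were called higher and 0 lower, beside 8.34% and 5.66% of all genes. Smaller differences were shared by mitosis members: 24 of 26 had an interval above 0, beside 27.1% of all genes, compared with 6 of 17 S phase members. The median log2 ratio was 0.51 for mitosis and 0.06 for S phase members, beside 0.00 over all genes. *Cenpf* was at 16.6 and 45.6 CPM (log2 ratio 1.45, interval 1.25 to 1.67), *Mki67* at 254 and 516 CPM (1.02, 0.96 to 1.08) and *Foxm1* at 35.6 and 64.9 CPM (0.87, 0.71 to 1.02). *Top2a* had a ratio of 0.36 (0.31 to 0.42), *Cdk1* of 0.56 (0.40 to 0.71) and *Mcm2* of 0.23 (0.12 to 0.34). The lowest were *Pcna* at 291 and 223 CPM (−0.39, −0.46 to −0.32), *Ccne1* at 18.2 and 14.4 CPM (−0.34, −0.60 to −0.07) and *E2f1* at 23.6 and 20.3 CPM (−0.22, −0.45 to 0.01). All 10 neutrophil precursor markers and 14 of 15 endothelial markers were also higher in this KO library (18589 and 20565 CPM, and 3249 and 3894 CPM). So were all 9 stromal markers (1202 and 2273 CPM) and 6 of 7 pericyte and smooth muscle markers (138 and 321 CPM). Of the satellite cell and myoblast markers 0 of 7 were higher (128 and 82.0 CPM), with *Pax7* at 283 and 16 counts. Higher markers were 1 of 8 for T cells, 1 of 7 for dendritic cells and 1 of 6 for plasma cells. They were 0 of 6 for epithelial cells, and 3 of 7 for B cells and for erythroid precursors. Mature neutrophils had 4 of 7 and mast cells 4 of 6. Of the NK cell and ILC2 markers 0 of 7 were higher (302 and 197 CPM), and of the macrophage markers 1 of 9 (5514 and 5294 CPM). That 1 marker, *Lyz2*, made up most of the macrophage sums (4817 and 4973 CPM). Among the markers that were lower, *Csf1r* was at 258 and 133 CPM and *C1qa* at 76.8 and 24.0 CPM. The part of these cell types was not tested.

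**Figure D5:**
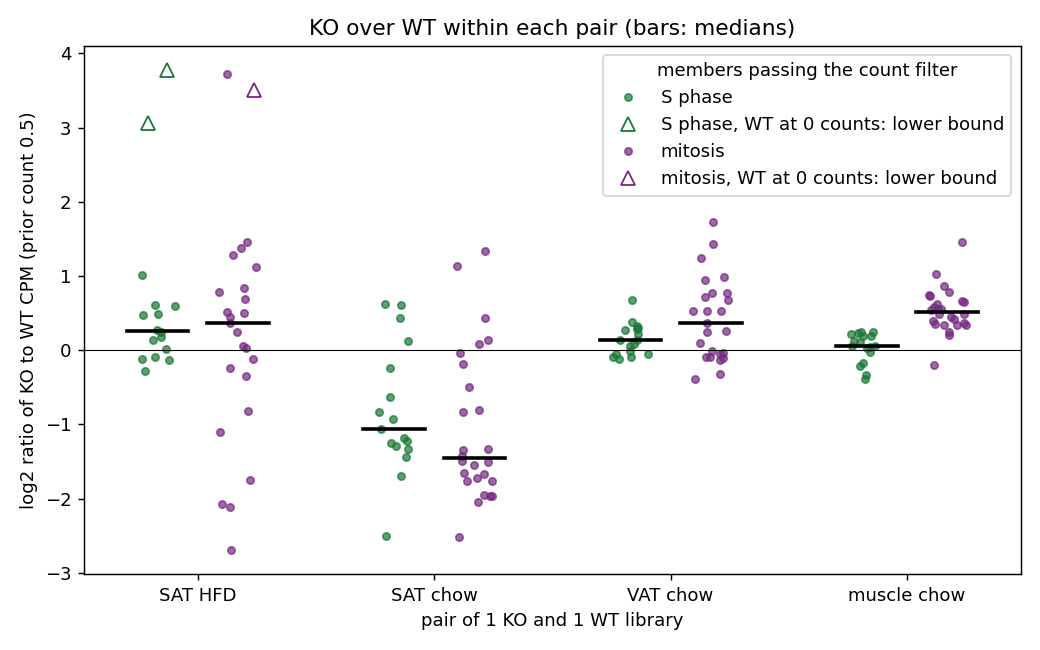
Log2 ratio of KO to WT CPM (y axis) of each member that passed the count filter, in each pair (x axis), with S phase members in green, mitosis members in purple and medians as bars. Open triangles are lower bounds for members with 0 counts in WT. The SAT chow medians are −1.06 for S phase and −1.46 for mitosis members, and the medians of the other 3 pairs are above 0.

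Relative to WT, the S phase minus mitosis difference was higher in KO by 0.34 in SAT HFD and by 0.48 in SAT chow, and was −0.38 in VAT and −0.33 in muscle. The SD of S phase minus mitosis over the single values of the 6 adipose libraries was 0.234. It is not the spread of a difference between libraries, and it holds no muscle library.

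Further genes of the same pathways were examined as lists of other replication genes (48), other mitosis genes (55), G1 cyclins and kinases (12), and quiescence factors and E2F repressors (15). In muscle against VAT, 2 of 48, 7 of 55, 3 of 12 and 1 of 15 passed edgeR's test as higher and 0 as lower, with medians of 1.13, 2.63, 0.70 and 0.60 on the log2 scale. *Dtl*, a ubiquitin ligase subunit of S phase, changed by 3.21 ± 0.451 (SE, edgeR adjusted p = 0.0141) and the DNA methyltransferase *Dnmt1* by 1.57 ± 0.313 (SE, adjusted p = 0.0498). *Cdca5*, which protects sister chromatid cohesion, changed by 4.62 ± 0.772 (SE, adjusted p = 0.0284) and the kinesin *Kif4* by 3.69 ± 0.712 (SE, adjusted p = 0.0464). In the G1 list *E2f2* changed by 3.28 ± 0.377 (SE, adjusted p = 0.0076) and the phosphatase *Cdc25a* by 2.36 ± 0.418 (SE, adjusted p = 0.0351), and in the last list the repressor *E2f8*, itself made in S phase, changed by 4.66 ± 0.581 (SE, adjusted p = 0.00936).

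In muscle against SAT chow, *E2f2* (2.13 ± 0.359, SE, edgeR adjusted p = 0.0379) and *E2f8* (3.30 ± 0.539, SE, adjusted p = 0.0355) were the only genes of these 4 lists that passed. The median was 1.58 over other mitosis genes and 0.37 over other replication genes, so mitosis genes again lay higher than replication genes. In VAT against SAT chow, the single-strand DNA binding protein *Rpa1* (−1.92 ± 0.385, SE, adjusted p = 0.0328) and the condensin subunit *Smc4* (−1.97 ± 0.323, SE, adjusted p = 0.0162) were lower. No gene of these lists passed in the diet or the KO comparison by edgeR, where 12 and 1 had an unadjusted p under 0.05, beside 9.29% and 1.63% of all genes. Within the SAT chow pair, 17 of 48 other replication genes and 26 of 55 other mitosis genes were called lower in KO, beside 18.8% of all genes, and within the muscle pair 42 of 55 other mitosis genes and 20 of 48 other replication genes had an interval above 0, beside 27.1% of all genes.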

How the data were processed

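RNAseq of sorted mG+ cells was analysed from the deposited table of read counts per gene, which the authors made without normalization. HISAT2 2.0.5 and the builds GRCm38 and mm10 are named in the submitters' processing notes, and the counting program, its strand setting and pooling of mice are not given in the sources used here. Libraries were grouped by the labels into 4 pairs of 1 KO and 1 WT library. A gene's reads and those of an overlapping antisense gene cannot be told apart.

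Counts were tested in edgeR 4.0.16 (R 4.3.3) by the quasi-likelihood test, with TMM scaling, pair and genotype as terms, a mean of at least 10 counts (16971 genes) and Benjamini-Hochberg adjustment over all of them at 0.05. A tissue comparison used the WT and the KO library of each tissue as 2 replicates. The SE was derived as the absolute log2 fold change divided by the square root of the edgeR F statistic. Nothing states that libraries came from separate mice, so p-values measure the spread between these libraries only. Deviations of KO and WT libraries of one pair correlated at 0.057 (SAT chow) to 0.561 over genes, and those of different pairs at −0.333 to 0.176, so the ranges overlapped. Within a pair, log2 ratios (prior count 0.5) carried 95% Clopper-Pearson intervals, with no test, for members whose 2 libraries averaged 10 counts or more. Scripts were tested on simulated data. DESeq2 1.42.0, other scalings, filters and leaving out libraries were alternatives. Named genes were the most abundant per kb in each role group, *Mki67*, *Top2a*, *Cdk1*, *Pcna* and *Mcm2*, up to 5 members past the threshold and the 3 members with the largest changes each way within a pair. Other genes that passed were named as a count of 5 or fewer, or after their values were seen. The members and lists were chosen with earlier results of these data known.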

Additional observations from a re-analysis of the deposited data

Results flagged for a closer look

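The median log2 ratio of KO to WT over the cell cycle members was 0.27 in SAT HFD and −1.25 in SAT chow. Over all genes it was 0.06 and 0.00. The directions over members were opposite in the 2 diets, but in SAT HFD members were called about as often as genes in general. The SAT chow WT library was the one with low *Malat1*. There was 1 library per genotype and diet, and the difference was not tested.

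The S phase minus mitosis difference, as KO minus WT, was 0.34 in SAT HFD and 0.48 in SAT chow, and −0.38 in VAT and −0.33 in muscle, so the sign differed between SAT and the other 2 tissues. In VAT it was −0.016 per kb of gene length, and in SAT chow 0.20 with a larger pseudocount and 0.18 with means. This difference was not tested either. No group held enough libraries to look for a library far from the rest of its group.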

How the results depend on the processing

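Values recomputed under alternatives were classed as the same or as moved, and for counts of members the limit was 1.5 times the count. Within pairs, the medians and the S phase minus mitosis values kept their direction under every alternative. A move there was a change of size only. Of 126 values recomputed for the main comparisons, 93 were classed as the same and 33 as moved. The median log2 fold change of the members, counted apart from these, turned from −0.80 to 0.11 in SAT HFD against SAT chow without the SAT chow WT library, and in the KO comparison from 0.02 to −0.16, −0.06 and −0.08 without the SAT HFD, VAT or muscle pair. For muscle against VAT, 32 members passed with every gene of at least 1 count tested, beside 3.91% of all genes. DESeq2's Wald test gave 30, beside 7.39%. Without the SAT chow pair 29 passed, beside 7.49%, and without the SAT HFD pair 18, beside 2.78%. With a library of either tissue left out, the median log2 fold change was 2.48 to 2.87. With DESeq2 size factors 11 passed, beside 1.79% of all genes, and with library totals 17, beside 1.998%, all among or including the 16. For muscle against SAT chow, 2 passed with DESeq2 size factors, library totals or a mean of at least 50 counts, 4 without a genotype term, 16 in DESeq2's Wald test and 18 with every gene of at least 1 count, and 0 to 12 with a library or a pair left out. For VAT against SAT chow, 4 passed without a genotype term, 6 in DESeq2's Wald test and 13 with every gene of at least 1 count, and 0 to 21 with a library or a pair left out. For SAT HFD against SAT chow, 0 passed in every fit with both libraries of each side, beside 0.00% to 1.53% of all genes. With a library of either side left out, the median was −1.42 to 0.11. Leaving out a pair that was not part of a comparison was chosen after seeing the data. The KO comparison gave 0 members in every fit, with 0 to 0 when a pair was left out. The cause of these changes was not tested.

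Within pairs, a mean of at least 50 counts left 6 members called in SAT HFD and 1 in VAT. The SAT HFD median of 0.27 was 0.62 as a mean, and the muscle median of 0.34 was 0.50 with library totals. The S phase minus mitosis change of SAT chow was 0.20 with a pseudocount of 5 and 0.18 with means, that of VAT was −0.016 per kb, and the difference of muscle from adipose tissue was −0.81 with a pseudocount of 5. With 1 library per group, genotype and library cannot be told apart within a pair. Low counts limit *Cdc25c* and *Gins2* most. No paired analysis was possible because the labels give no replicate numbers, beyond the tissue and diet pair already in the model.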
